A study of Homo sapiens with 2 samples.

Results

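The subunit genes of the oxidative phosphorylation system were examined for FLAG-SMARCA4 occupancy that differed between parental TOV21G cells and an EZH2 inhibitor-resistant (EIR) clone. They were taken by symbol from the nuclear protein-coding genes of GENCODE release 44 on GRCh37. The symbols start with NDUFA, NDUFB, NDUFC, NDUFS or NDUFV (complex I), SDHA to SDHD (complex II), UQCR (complex III), COX4I to COX8 (complex IV) or ATP5 (complex V), and the assembly factors named NDUFAF and SDHAF were left out. The rule found 90 genes of 20163, with 40 in complex I, 4 in complex II, 9 in complex III, 17 in complex IV and 20 in complex V. The rule goes by name, so it includes 2 readthrough genes (*NDUFC2-KCTD14* and *ATP5MF-PTCD1*) and the ATP synthase inhibitor *ATP5IF1*. *NDUFA4* and *NDUFA4L2* are counted in complex I by name, although the product of *NDUFA4* is now assigned to complex IV. The rule leaves out *CYC1*, the cytochrome c1 gene of complex III.

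TOV21G cells derive from an ovarian clear cell carcinoma and carry *ARID1A* mutations. The ChIP-seq comprised 1 library of parental cells and 1 library of EIR clone 3, which had been selected from TOV21G cells in the EZH2 inhibitor GSK126 at 5, 10, 15 and finally 20 μM. In both, *SMARCA4*, the gene of the SWI/SNF ATPase also called BRG1, carried a FLAG tag at its endogenous locus, and chromatin was precipitated through the tag. The tagged cells had been expanded from single colonies and each condition is 1 library, so a difference between the libraries, the colonies and the conditions cannot be told apart.

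The deposited lists hold regions in which the libraries differed. HOMER called them with the opposite library as control, and they comprise 10792 regions with more tags in parental cells (parental-higher) and 2104 with more tags in the EIR clone (EIR-higher). A tag is an aligned read. The libraries held 25.6 M and 35.0 M tags, and EIR tags are given scaled to the parental total, on which 1 EIR tag counts 0.733. The weakest parental-higher region of the whole list had 15 parental tags and the weakest EIR-higher region had 13.9 scaled EIR tags. Regions with like occupancy in both libraries were not analysed here, so a gene without a region may still be occupied by SMARCA4. Every region had been called for its difference between these libraries. Its tags are therefore a description, and no main result rests on a new test of them. A binomial and a Poisson threshold were applied to the same tags only as alternatives, to filter the called regions. Each 95% confidence interval of a fold (exact Clopper-Pearson) covers counting error only. Expression was not analysed here, and the identity of the cells could not be checked against marker genes.

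Oxidative phosphorylation takes place in the inner mitochondrial membrane. Complexes I and II pass electrons from NADH and succinate to ubiquinone, complex III passes them on to cytochrome c, and complex IV reduces oxygen. Complexes I, III and IV pump protons, and complex V, the ATP synthase, uses their return to make ATP. Most subunits are encoded in the nucleus, many of them behind CpG-rich promoters with sites for NRF1, GABP, YY1 and ERRα, and the rest in the mitochondrial genome.

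Of the 90 subunit genes, 12 (13.3%) had a region, parental-higher or EIR-higher, within 1 kb of a transcription starting site (TSS), measured from the nearest edge of the region to the TSS of any transcript. Among all nuclear protein-coding genes the share was 24.6%. The 95% Wilson confidence interval of the subunit genes' share was 7.79 to 21.9% and treats genes as independent draws. A parental-higher region lay at 10 subunit genes (11.1%), against 23.2% of all protein-coding genes. An EIR-higher region lay at 2 (2.22%), against 1.96%. No subunit gene had regions of both kinds within 1 kb. These shares are counts set side by side, and the difference between them was not tested. The region farthest from a TSS among those counted was that of *NDUFS5* at 407 bp, and the first one beyond the limit was that of *NDUFA11* at 1117 bp.

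By complex, 7 of 40 complex I genes (17.5%, 95% confidence interval 8.75 to 32.0%), 1 of 17 complex IV genes (5.88%, 1.05 to 27.0%) and 4 of 20 complex V genes (20.0%, 8.07 to 41.6%) had a region. None of the 4 complex II genes and none of the 9 complex III genes did. The numbers in complexes II and III are small, and their intervals reached 49.0% and 29.9%. The intervals of all 5 complexes overlapped.

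**Figure D1:**
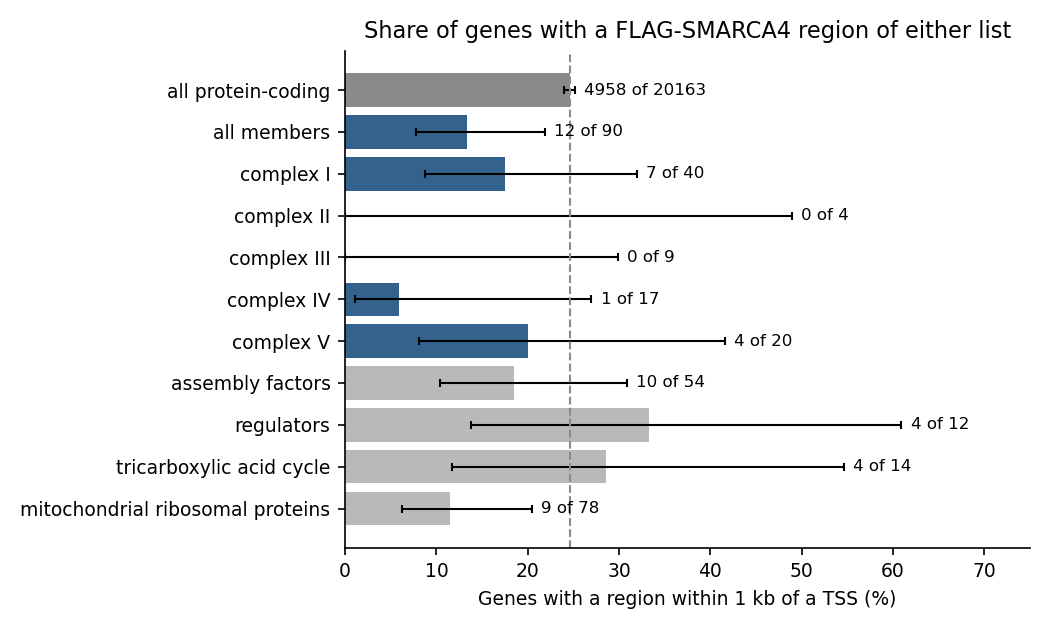
Percent of genes (horizontal axis) whose TSS lay within 1 kb of a FLAG-SMARCA4 region, whichever the list, for all protein-coding genes, the subunit genes (blue, whole and by complex) and related gene lists (grey). Bars start at 0, error bars are 95% Wilson confidence intervals, the numbers are genes with a region of genes in the group, and the dashed line marks 24.6%. The subunit genes stand at 13.3%, and complexes II and III have no bar.

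In complex I, *NDUFS3*, *NDUFV2* and *NDUFV3*, genes of the matrix arm through which electrons pass, had parental-higher regions. *NDUFS3* encodes a core subunit of the arm near the ubiquinone site. Its region on chromosome 11 (GRCh37, 47601057 to 47601557) had 20 parental tags and 5 EIR tags (3.7 scaled), which gives a fold of 5.41 (1.99 to 18.6, the 95% confidence interval, as in the values that follow). It began 431 bp and ended 931 bp into the gene, counted from the canonical TSS, with its centre in intron 2. It was 529 bp from a TSS of the divergent gene *KBTBD4*. *NDUFV2* encodes an iron-sulphur subunit of the NADH-oxidising module. Its region on chromosome 18 (9116839 to 9117339) had 17 parental and 4 EIR tags (2.9 scaled), a fold of 5.86 (1.89 to 23.7). This region was 46 bp from an alternative TSS inside intron 1 and 14142 bp downstream of the canonical TSS, so it does not mark the main promoter. *NDUFV3*, an accessory subunit of the same module, had a region on chromosome 21 (44313484 to 44313984) that began 65 bp downstream of the canonical TSS and reached into intron 1. It held 35 parental and 23 EIR tags (16.9 scaled), a fold of 2.07 (1.19 to 3.68). The folds of *NDUFS3* and *NDUFV2* were the largest among the 12 genes and rested on 5 and 4 EIR tags, and their intervals included the fold of *NDUFV3*.

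A further 3 complex I genes had parental-higher regions whose centres lay outside the exons of the canonical transcript. *NDUFS5*, an accessory subunit of the membrane arm, had a region of 750 bp on chromosome 1 (39492429 to 39493179), with its centre in intron 1. It held 30 parental and 11 EIR tags (8.1 scaled), a fold of 3.70 (1.81 to 8.23). *NDUFA9*, an accessory subunit next to the ubiquinone site, had a region on chromosome 12 (4757616 to 4758116) that ended 164 bp upstream of the canonical TSS. Its 20 parental and 10 EIR tags (7.3 scaled) gave a fold of 2.74 (1.22 to 6.53). This region was 58 bp from a TSS of *AKAP3*, a sperm protein gene on the other strand, and so was nearer to *AKAP3* than to *NDUFA9* (145 bp). *NDUFA4L2* encodes the hypoxia-induced relative of *NDUFA4*. Its region on chromosome 12 (57634184 to 57634684) covered an alternative TSS and ended 3297 bp upstream of the canonical one, with 23 parental and 11 EIR tags (8.1 scaled) and a fold of 2.84 (1.34 to 6.48). *NDUFA4* itself, whose product is now counted among the subunits of complex IV, had no region within 1 kb, and the nearest one was 1047484 bp away.

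*NDUFB8*, an accessory subunit of the membrane arm, was the complex I gene with more tags in the EIR clone. Its region on chromosome 10 (102289086 to 102289586) had 8 parental tags against 33 EIR tags (24.2 scaled), a fold of 3.02 toward the EIR clone (1.37 to 7.58). It began 42 bp downstream of the canonical TSS, with its centre in intron 1, and was 257 bp from a TSS of *HIF1AN* on the other strand, which encodes the asparagine hydroxylase that inhibits HIF-1. A further coding gene model without a symbol, on the same strand as *NDUFB8*, starts 35 bp from the region. The tags of this region cannot be divided among these genes.

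The sequences of the regions differ as much as their positions do. The following stretches are the part of each region that lies nearest the canonical TSS and is free of coding-transcript exons, from the reference genome (GRCh37) on the strand of the gene. They are shown for *NDUFS3*, the core subunit whose region lay near the main promoter, and for *NDUFB8*, with more tags in the EIR clone (chr11:47601249-47601398, plus strand, and chr10:102289374-102289523, minus strand). Capitals would mark the motif letters listed further on, and neither stretch has one. The GC content was 45.3% and 61.3%.
NDUFS3: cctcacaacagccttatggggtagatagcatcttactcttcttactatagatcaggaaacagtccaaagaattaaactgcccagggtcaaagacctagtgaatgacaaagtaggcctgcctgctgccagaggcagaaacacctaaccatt
NDUFB8: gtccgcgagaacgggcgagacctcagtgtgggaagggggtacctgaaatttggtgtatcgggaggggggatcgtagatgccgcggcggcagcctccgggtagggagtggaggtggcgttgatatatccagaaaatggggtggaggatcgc

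In complex IV, *COX4I1*, the gene of the general isoform of subunit 4, was the 1 gene with a region. The region on chromosome 16 (85832946 to 85833812) was 866 bp long and reached from position -355 to 511 relative to the canonical TSS. It had 60 parental and 33 EIR tags (24.2 scaled), a fold of 2.48 (1.60 to 3.92). It also covered a TSS of the divergent gene *EMC8*, a subunit of the endoplasmic reticulum membrane protein complex. The gene of the tissue-limited isoform, *COX4I2*, had no region within 1 kb, and its nearest one was 20788 bp away. None of the other isoform pairs of complex IV (*COX6A1* and *COX6A2*, *COX6B1* and *COX6B2*, *COX7A1* and *COX7A2*, *COX7B* and *COX7B2*, *COX8A* and *COX8C*) had a region within 1 kb at either gene. The nearest of these was 3294 bp from *COX6B1*, with 23 parental and 8.1 scaled EIR tags.

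In complex V, *ATP5F1D* had the most tags among the 12 subunit genes with a region. It encodes the δ subunit of the central stalk, and its region on chromosome 19 (1240095 to 1242029) was the longest, at 1934 bp, reaching from position -1655 to 279 relative to the canonical TSS. It held 87 parental and 50 EIR tags (36.7 scaled), a fold of 2.37 (1.66 to 3.43). Per length it was not the densest: *ATP5F1D* had 45.0 parental tags per kb, against 70.0 at *NDUFV3* and 69.3 at *COX4I1*. A further 3 regions lay within 5 kb of *ATP5F1D*. At 2083 bp an EIR-higher region had 5 parental and 17.6 scaled EIR tags, at 3191 bp a parental-higher region had 93 and 28.6, and at 4874 bp another parental-higher region had 242 and 90.9. Both directions therefore occurred within 5 kb of the same gene.

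The other complex V genes encode the catalytic head and the peripheral stalk. *ATP5F1B*, the catalytic β subunit, had a region on chromosome 12 (57037399 to 57037899) that covered an alternative TSS, with its centre in exon 4 (positions 1869 to 2369 relative to the canonical TSS). It held 19 parental and 8 EIR tags (5.9 scaled), a fold of 3.22 (1.35 to 8.56). *ATP5PD*, subunit d of the peripheral stalk, had a region on chromosome 17 (73043189 to 73043823) that ended 125 bp upstream of the canonical TSS and covered the TSS of the divergent gene *KCTD2*. Its 35 parental and 22 EIR tags (16.1 scaled) gave a fold of 2.17 (1.24 to 3.88). *ATP5PO*, the oligomycin sensitivity-conferring subunit at the top of the same stalk, went the other way. Its region on chromosome 21 (35288470 to 35288970) had 4 parental against 22 EIR tags (16.1 scaled), a fold of 4.03 toward the EIR clone (1.37 to 16.1). This region spanned positions -862 to -362 relative to the canonical TSS and was 288 bp from a TSS of the long non-coding RNA gene *LINC00649*, so it was nearer to that gene than to *ATP5PO* (352 bp). The 2 peripheral stalk genes with a region thus had them in different lists.

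Sequence from the same genome is shown for the region with the most tags (*ATP5F1D*), for the complex IV gene (*COX4I1*) and for the complex V gene of opposite direction (*ATP5PO*). The stretches are chr19:1241595-1241744 (plus strand, positions -155 to -6 relative to the canonical TSS), chr16:85833491-85833640 (plus strand, positions 190 to 339, in intron 1) and chr21:35288470-35288619 (minus strand, positions -511 to -362). Capitals mark CGTCA, the CRE core read on the other strand, in *ATP5F1D*, and CCGCCC and TGACCTT, the SP1 and ERR letters read on the other strand, in *COX4I1*. The *ATP5PO* stretch has none of the letters searched. GC content was 66.0%, 75.3% and 43.3%.
ATP5F1D: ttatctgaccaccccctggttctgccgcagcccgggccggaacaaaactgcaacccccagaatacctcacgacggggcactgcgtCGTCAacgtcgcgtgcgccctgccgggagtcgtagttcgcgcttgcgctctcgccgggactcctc
COX4I1: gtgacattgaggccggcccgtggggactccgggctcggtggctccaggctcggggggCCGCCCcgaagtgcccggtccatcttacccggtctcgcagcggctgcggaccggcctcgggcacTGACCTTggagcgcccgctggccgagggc
ATP5PO: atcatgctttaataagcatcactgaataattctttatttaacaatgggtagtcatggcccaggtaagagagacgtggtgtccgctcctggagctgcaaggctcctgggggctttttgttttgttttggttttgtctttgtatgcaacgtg

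**Figure D2:**
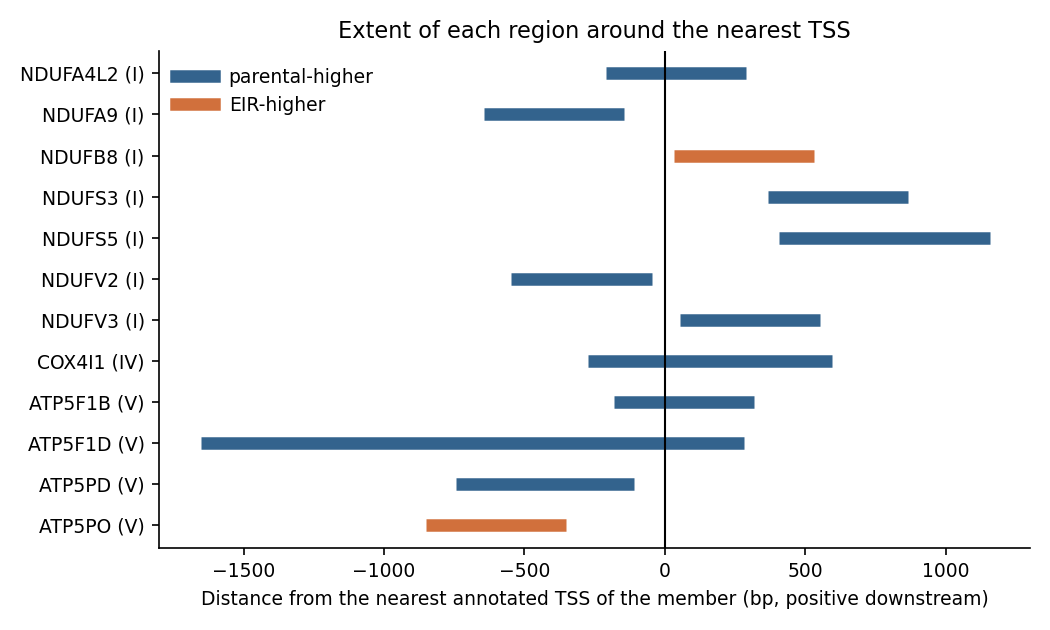
Extent of each region (bars) along the distance from the nearest annotated TSS of its gene (horizontal axis, bp, positive downstream, vertical line at the TSS) for the 12 subunit genes, with the complex in parentheses. Parental-higher regions are blue and EIR-higher regions are orange, and 4 bars cross the TSS.

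The regions lay beside a TSS more often than over one. Of the 12 genes, 4 (33.3%) had a region that covered one of their own TSSs, namely *ATP5F1B*, *ATP5F1D*, *COX4I1* and *NDUFA4L2*. Of the 4958 protein-coding genes with a region, 3542 (71.4%) did. In *ATP5F1B* and *NDUFA4L2* the covered TSS was an alternative one, which leaves *ATP5F1D* and *COX4I1* as the genes whose canonical TSS lay inside a region. The window counts any annotated TSS. The subunit genes had a median of 6 TSSs each, against 5 for all protein-coding genes. In each class of TSS number the share with a region was lower among subunit genes. It was 0 of 6 against 11.0% for genes with 1 TSS, 7.69% against 20.2% for 2 to 4 TSSs, 19.4% against 26.7% for 5 to 9, and 13.6% against 35.3% for 10 or more. The classes of subunit genes hold 6 to 36 genes, and the differences were not tested.

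The 10 parental-higher regions of subunit genes had a median of 26.5 parental tags (quartiles 20.0 and 35.0) and 8.1 scaled EIR tags. The nearest parental-higher regions of all 4643 protein-coding genes of this kind had medians of 50 (32.0 and 79.5) and 20.5. *ATP5F1D* and *COX4I1* stood above the median of 50, and the other 8 genes were at 35 parental tags or fewer. The quartile ranges of the fold of parental over scaled EIR tags overlapped. The median fold was 2.79 (quartiles 2.40 and 3.58) for the subunit genes and 2.53 (2.14 and 3.05) for all protein-coding genes.

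**Figure D3:**
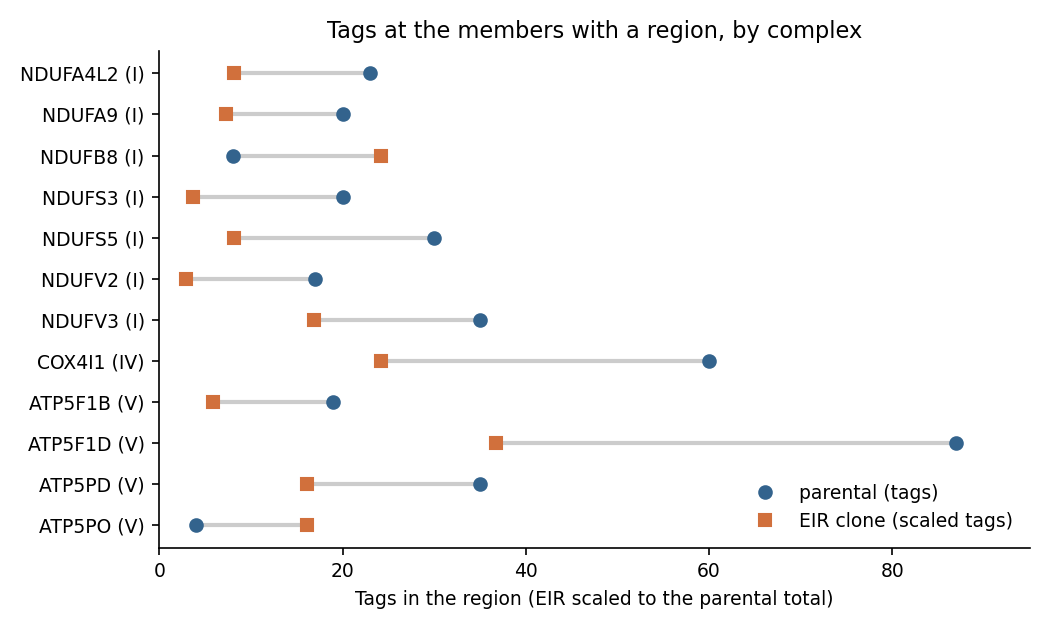
Tags in the region nearest each of the 12 subunit genes (horizontal axis, parental tags as blue circles and EIR tags scaled to the parental total as orange squares), with the complex in parentheses. Parental tags are higher at 10 genes, from 17 at *NDUFV2* to 87 at *ATP5F1D*, and lower at *NDUFB8* and *ATP5PO*.

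Summed over the 12 regions, the subunit genes had 358 parental and 232 EIR tags (170.2 scaled), a ratio of 2.11, over 8184 bp (43.7 parental and 20.8 scaled EIR tags per kb). The 7 regions of complex I had 153 and 71.2 scaled, a ratio of 2.15, over 3750 bp (40.8 and 19.0 per kb). The 4 regions of complex V had 145 and 74.8, a ratio of 1.94, over 3568 bp (40.6 and 21.0 per kb). Each region was called for its own direction, so these ratios follow from how many regions of each list fall in a complex, and the complexes were not compared by them. *ATP5F1D* alone gave 87 of the 145 parental tags of complex V. If the EIR library is scaled 1.5 times higher, the ratio of all summed tags is 1.40 and 6 genes keep a region at a Poisson p of at most 1e-04.

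**Figure D4:**
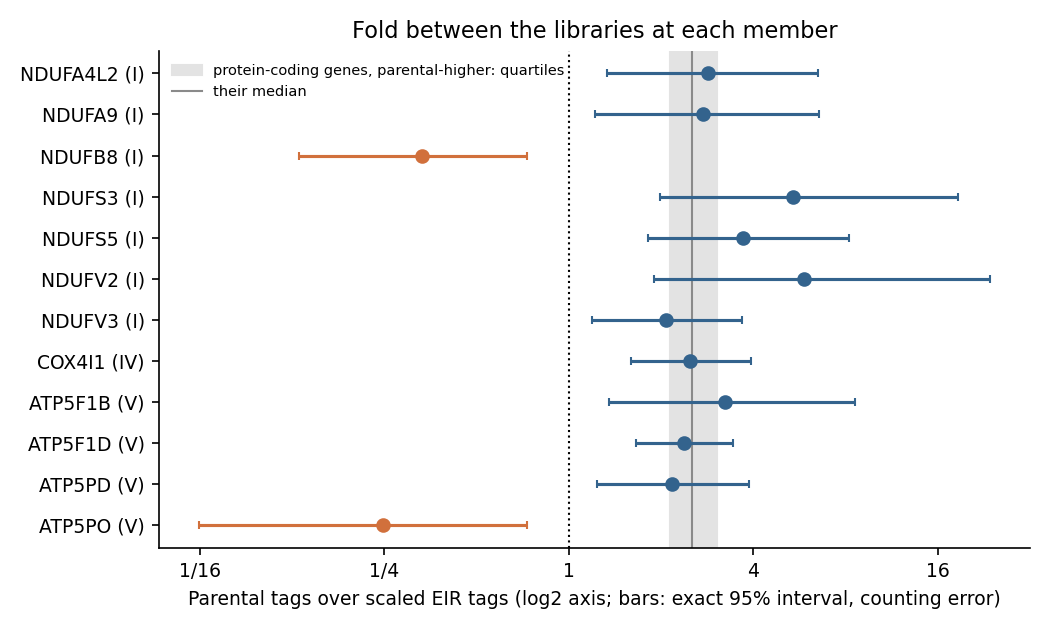
Parental tags over scaled EIR tags in the region of each of the 12 subunit genes (points, log2 axis), with exact 95% confidence intervals that cover counting error only. The grey band and line are the quartiles and median (2.14, 3.05 and 2.53) of the parental-higher regions of all protein-coding genes, and the dotted line marks equal tags. *NDUFB8* and *ATP5PO* lie to the left of it.

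The other 78 subunit genes had no region within 1 kb. In complex I these included *NDUFA1*, *NDUFA2*, *NDUFA3*, *NDUFA4*, *NDUFA5*, *NDUFA6*, *NDUFA7*, *NDUFA8*, *NDUFA10*, *NDUFA11*, *NDUFA12*, *NDUFA13*, *NDUFAB1*, *NDUFB1*, *NDUFB2*, *NDUFB3*, *NDUFB4*, *NDUFB5*, *NDUFB6*, *NDUFB7*, *NDUFB9*, *NDUFB10*, *NDUFB11*, *NDUFC1*, *NDUFC2*, *NDUFC2-KCTD14*, *NDUFS1*, *NDUFS4*, *NDUFS6*, *NDUFS7*, *NDUFS8* and *NDUFV1*. In complexes II and III they were *SDHA*, *SDHB*, *SDHC*, *SDHD*, *UQCR10*, *UQCR11*, *UQCRB*, *UQCRC1*, *UQCRC2*, *UQCRFS1*, *UQCRH*, *UQCRHL* and *UQCRQ*. In complex IV they were *COX4I2*, *COX5A*, *COX5B*, *COX6A1*, *COX6A2*, *COX6B1*, *COX6B2*, *COX6C*, *COX7A1*, *COX7A2*, *COX7A2L*, *COX7B*, *COX7B2*, *COX7C*, *COX8A* and *COX8C*. In complex V they were *ATP5F1A*, *ATP5F1C*, *ATP5F1E*, *ATP5IF1*, *ATP5MC1*, *ATP5MC2*, *ATP5MC3*, *ATP5ME*, *ATP5MF*, *ATP5MF-PTCD1*, *ATP5MG*, *ATP5MGL*, *ATP5MJ*, *ATP5MK*, *ATP5PB* and *ATP5PF*.

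Of these, 4 had a region between 1 and 5 kb away. *NDUFA11*, an accessory subunit of the membrane arm, had an EIR-higher region at 1117 bp with 5 parental and 16.1 scaled EIR tags. *ATP5MJ*, a small membrane subunit of the ATP synthase, had an EIR-higher region at 1546 bp with 4 and 15.4. *NDUFB3*, another accessory subunit of complex I, had a parental-higher region at 1918 bp with 57 and 26.4. The fourth gene was *COX6B1*, given with the isoform pairs. A further 14 genes had their nearest region 5 to 20 kb away and 60 genes had it beyond 20 kb. The median distance over all 90 genes was 36087 bp. In complex II the nearest region was 10996 bp from *SDHB*, the iron-sulphur subunit of succinate dehydrogenase (56 parental and 22.0 scaled EIR tags). In complex III it was 9127 bp from *UQCR11*, a small accessory subunit (36 and 8.8). No region of either list lay on the mitochondrial chromosome.

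The promoters of the subunit genes were read from GRCh37, from 250 bases before to 50 bases after the canonical TSS, for 89 of the 90 genes and 19881 protein-coding genes. The subunit promoters were CpG-rich (an observed over expected CpG ratio of at least 0.6) in 80 genes (89.9%), against 67.6% of all protein-coding promoters. Their median GC content was lower, at 61.0% against 63.7%, and 23 (25.8%) reached a GC content of 65%, against 45.9%. Protein-coding genes with a region had a median promoter GC content of 71.7%, and those without had 61.3%. Among CpG-rich promoters, 10 of 80 subunit genes (12.5%) and 32.8% of all protein-coding genes had a region. Among the promoters that were not CpG-rich the order was the other way, with 2 of 9 subunit genes (22.2%, *NDUFA4L2* and *NDUFB8*) and 8.3% of all protein-coding genes. That order rests on these 2 genes. *NDUFB8* was just under the limit, with a ratio of 0.594. The promoter read is that of the canonical TSS, whereas a region at any TSS was counted, and the *NDUFA4L2* region lay 3297 bp from the canonical TSS. The share followed GC content among all protein-coding genes, at 7.3% below 55% GC, 16% from 55 to 65% and 40.1% at 65% or more. Among subunit genes it was 2 of 23 (8.7%), 6 of 43 (14.0%) and 4 of 23 (17.4%). The values were close in the lower classes and apart in the highest, where the subunit genes with a region were *ATP5PD*, *COX4I1*, *NDUFV2* and *NDUFV3*. The regions of *NDUFV2* and *ATP5F1B* lay 14142 and 1869 bp from the canonical TSS, so they were not at the promoter that set their class. The part of GC content in the share was not tested, and each class of subunit genes is small.

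**Figure D5:**
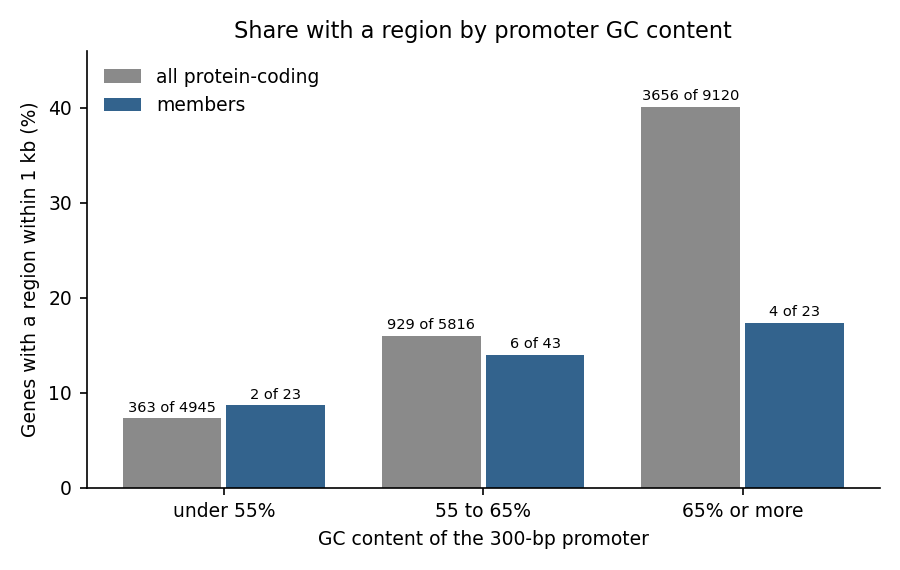
Percent of genes (vertical axis, from 0) with a region at 1 kb or less from a TSS by GC content of the 300-bp promoter, for all protein-coding genes (grey) and the subunit genes (blue), with the number of genes above each bar. The shares are 16% and 14.0% in the middle class and 40.1% and 17.4% in the highest.

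The GC content of the regions themselves was uneven. It ranged from 39.1% at *ATP5F1B*, inside the gene, to 76.4% at *ATP5PD*, beside the promoter. Of the regions below 50%, *ATP5F1B* and *NDUFS3* lay inside the transcript and *ATP5PO* upstream of it. Over all parental-higher regions the median was 49.9%, and over all EIR-higher regions it was 51.5%.

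Many subunit genes share their promoter with a gene on the other strand. Such pairs were counted between canonical TSSs only. A protein-coding gene started within 1 kb upstream in the opposite direction at 25 of 89 subunit genes (28.1%), against 9.4% of all protein-coding genes. Of these 25, 4 (16%) had a region, namely *ATP5PD* with *KCTD2*, *COX4I1* with *EMC8*, *NDUFA9* with *AKAP3* and *NDUFS3* with *KBTBD4*. All 4 were parental-higher, and their tags cannot be divided between the partners. *NDUFB8*, whose EIR-higher region was 257 bp from a TSS of *HIF1AN* on the other strand, is not among the 25. Among the 64 subunit genes without such a partner the share was 12.5%. For all protein-coding genes the shares were 22.9% with a partner and 25.1% without.

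Letters of the motifs known from respiratory gene promoters were searched on both strands of the same 300 bases. These are the NRF1 core CGCATGCG, the ETS (GABP) letters CCGGAAG, the YY1 letters AAGATGGC, the SP1 letters GGGCGG, the CRE core TGACG, the CCAAT box CCAAT, the ERR letters AAGGTCA and the TATA box TATAAA. The NRF1 core was found at 10 subunit promoters (11.2%) against 2.8% of all protein-coding promoters, ERR at 13 (14.6%) against 2.9%, YY1 at 15 (16.9%) against 4.1% and ETS at 24 (27.0%) against 14.1%. SP1 was at 54 (60.7%) against 61.4%, the CRE core at 33 (37.1%) against 29.2%, CCAAT at 29 (32.6%) against 36.0% and TATA at 6 (6.7%) against 9.6%. None of the 10 subunit genes with the NRF1 core (*ATP5F1C*, *ATP5MC2*, *ATP5ME*, *COX6A1*, *NDUFA5*, *NDUFA8*, *NDUFB4*, *NDUFS6*, *NDUFS7* and *SDHD*) had a region, and 25.3% of all protein-coding genes with this core had one. None of the 13 with the ERR letters (*ATP5F1A*, *ATP5MC3*, *ATP5MG*, *ATP5MJ*, *COX6C*, *COX7A2*, *COX8A*, *NDUFB4*, *NDUFB9*, *NDUFS6*, *NDUFS7*, *SDHB* and *SDHD*) had one, against 13.0%. The lists overlap in *NDUFB4*, *NDUFS6*, *NDUFS7* and *SDHD*. The share over all subunit genes was 13.3%, both lists are small, and their lack of a region was not tested. The search covered these promoters and not the regions. The stretch of the *COX4I1* region shown above, at positions 190 to 339, has the ERR letters outside the promoter searched. The ETS letters were at 4 genes with a region (*ATP5PD*, *COX4I1*, *NDUFS3* and *NDUFS5*) and the YY1 letters at 3 (*ATP5PO*, *NDUFA9* and *NDUFB8*). These are 16.7% of the subunit genes with ETS letters, against 20.9% of all protein-coding genes with them, and 20.0% with YY1 letters, against 23.3%, both near the background. For SP1 the shares were 16.7% (9 of 54) against 33.4%, for the CRE core 21.2% (7 of 33) against 26.5%, for CCAAT 10.3% (3 of 29) against 22.7% and for TATA 16.7% (1 of 6) against 11.2%. Both EIR-higher genes thus had the YY1 letters, as did 12 of the 77 subunit promoters without a region. A match is a run of letters in the reference and not a measured site.

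The NRF1 core is palindromic, and its surroundings at 5 of the 10 subunit genes are shown, those upstream of the TSS and outside coding exons. They cover chr10:7830104-7830139 (plus strand), chr12:54069886-54069923 (minus), chr12:120875682-120875719 (plus), chr7:123198007-123198044 (minus) and chr3:120315010-120315047 (plus). The core, in capitals, starts at positions -21, -41, -219, -157 and -158 relative to the canonical TSS. *ATP5F1C* encodes the γ subunit of the central stalk, *ATP5MC2* a gene copy of the membrane ring subunit c, *COX6A1* the general isoform of subunit 6A, and *NDUFA5* and *NDUFB4* accessory subunits of complex I.
ATP5F1C: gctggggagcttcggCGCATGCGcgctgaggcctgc
ATP5MC2: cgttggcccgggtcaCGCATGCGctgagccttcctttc
COX6A1: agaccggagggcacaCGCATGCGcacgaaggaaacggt
NDUFA5: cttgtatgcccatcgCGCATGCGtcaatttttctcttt
NDUFB4: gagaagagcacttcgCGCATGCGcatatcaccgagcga

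The genes that build, supply and regulate the system were counted in the same way. Of 54 assembly factor genes, 10 (18.5%) had a region, all with a parental-higher one, and 1 of them also had an EIR-higher one. Those with the most parental tags were *UQCC5*, a complex III assembly factor, with 143 parental and 61.6 scaled EIR tags, *NDUFAF6*, for complex I, with 142 and 61.6, and *SCO2*, a copper chaperone for complex IV, with 80 and 32.3. Each of these had more parental tags than *COX4I1*, and the first 2 had more than *ATP5F1D*. Other genes near the regions of these related lists were not looked up, so the tags may also belong to neighbours. Of the mitochondrial ribosomal protein genes, whose products translate the mitochondrially encoded subunits, 9 of 78 (11.5%) had a region, led by *MRPS6* with 127 and 39.6. Of 14 tricarboxylic acid cycle genes 4 (28.6%) had one, led by *IDH2* with 78 and 32.3. Of 12 regulators 4 (33.3%) had one. *NRF1*, the activator that binds the core above, had 78 and 28.6, *YY1* had 59 and 19.8, *ESRRA*, which encodes ERRα, had 39 and 9.5, and the coactivator gene *PPARGC1B* had an EIR-higher region with 6 and 19.1. The genes of 3 factors whose letters were searched thus had parental-higher regions, which covered a TSS in each case. *GABPA* and *GABPB1*, the genes of GABP, whose ETS letters were also searched, had no region within 1 kb. Genes of factors for the SP1, CRE, CCAAT and TATA letters were not on the list of regulators and were not looked up. A link between the regions of the regulators and the letters was not tested. *CYC1* had a region with 22 and 8.1, and *CYCS*, the cytochrome c gene, had none. The share of 24.6% over all protein-coding genes lies inside the 95% Wilson confidence interval of the assembly factors (10.4 to 30.8%), the regulators (13.8 to 60.9%) and the cycle genes (11.7 to 54.6%). It lies above the interval of the mitochondrial ribosomal protein genes (6.19 to 20.5%), as it does above that of the subunit genes. A share below 24.6% was thus not particular to the subunit genes. These intervals treat genes as independent draws, and the differences between the shares were not tested.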

How the data were processed

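ChIP-seq of FLAG-SMARCA4 was analysed in 1 parental and 1 EIR library, grouped by their labels. Per the submitters' notes and methods, the authors aligned reads with bowtie 0.12.9 to hg19 (the coordinates of GRCh37), ran HOMER in histone style with the opposite library as control, kept regions at an FDR of 5%, and pooled nothing. The deposited lists give the tag count of a region in the parental library, the signal of the EIR library scaled to the parental total, their ratio as fold, and HOMER's Poisson p-value. This p-value was used for alternatives and to choose among regions at equal distance from a gene.

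Tags were joined by position to every transcript TSS of GENCODE release 44 on GRCh37. Where several regions were near a gene, the nearest was used. EIR tag counts came from the steps of 0.733 in the scaled signal. Folds have exact Clopper-Pearson intervals and shares Wilson intervals, both at 95%. Every gene with a region is named, and genes without one are named except for an item that is not reported here. The members, lists, motifs and alternatives were chosen with earlier results of these data known. Alternatives were windows, TSS sets, minimum folds, a stricter p-value, an exact binomial test with adjustment, a pseudocount of 1 tag, readthrough genes left out and the EIR scale. The statistics were tested on simulated data. Python 3.11.15 was used with scipy 1.17.1, numpy 2.4.6, matplotlib 3.10.9 and pandas 2.3.3. The RNA-seq of the study was not used here.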

Additional observations from a re-analysis of the deposited data

How the results depend on the processing

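Neither the median fold nor a fold of summed tags reversed direction under the alternatives tried. Each region had been called for its own direction, which limits what this can show. With 1 library per condition no replicate could be left out. No paired analysis was possible because each condition has 1 library and no result comes from a test across samples. The share of subunit genes with a region was below that of all protein-coding genes under every alternative tried except a minimum fold of 4, where it was 3.33% against 2.58%. The 12 genes were the same with a window of 500 bp, distance from the centre, a fold of at least 2, the adjusted binomial test or without readthrough genes. The binomial test reused the tags by which the regions had been called and kept all 4958 protein-coding genes, so it adds no support. The farthest of the 12 regions was at 407 bp and neither readthrough gene had one, so those 2 settings could not change the 12. A window of 5 kb gave 16 genes, with 5 rather than 2 having an EIR-higher region (*NDUFA11*, *ATP5MJ* and *ATP5F1D* were added). The 5′ end of the gene alone gave 8 genes, 6 with a parental-higher region. A fold of at least 4 left 3 genes (*NDUFS3*, *NDUFV2* and *ATP5PO*), 2 parental-higher and 1 EIR-higher. A HOMER p of at most 1e-06 left 5 genes, all 5 parental-higher and 0 EIR-higher. Fewer regions enter under both by construction.

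Scaling the EIR library 1.5 times higher left 6 genes, 4 parental-higher, with a median fold of 1.74 in place of 2.60, and folds of summed tags of 1.40 for all, 1.43 for complex I and 1.29 for complex V. Scaling it 1.5 times lower left 0 EIR-higher genes, with a median fold of 3.91 and folds of 3.16, 3.23 and 2.91. A change of scale can remove regions from the lists and cannot add any. Chosen after seeing the data, protein-coding transcripts alone gave 11 genes (without *NDUFV2*), and canonical transcripts alone 9 (without *ATP5F1B*, *NDUFA4L2* and *NDUFV2*). At 4 to 87 parental tags a region, counting error spans several-fold for the weakest genes.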
